A study of Mus musculus with 22 samples.

Results

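Ly6Chi monocytes isolated from the lungs of SP-CI73T mice 14 d after injury were compared with the same cells from control mice across 8895 protein-coding autosomal genes. These are the genes with a mean level of 5 or more counts per 1000000 (CPM) in the control or the 14 d samples, out of 55421 genes counted and 22353 tested, after 41 genes that the study's own text names had been set aside. All mice were C57BL/6 and carried the SP-CI73T allele, which encodes a mutant form of surfactant protein C, a product of alveolar type 2 cells. In the 14 d and 3 d groups a single oral dose of tamoxifen activated a recombinase, Flp-O, that removed a neomycin cassette and raised the mutant protein. The controls are labelled untreated, and the study's text gives those of this sequencing as SP-CI73T mice that received oil. The study used adult mice of both sexes. There were 4 control, 4 3 d and 4 14 d monocyte samples, sorted as CD11b+Ly6Chi cells from lavaged, perfused and collagenase-digested lungs, and whether each came from 1 mouse or from pooled mice is not stated. P-values therefore measure the spread between samples.

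Ly6Chi monocytes are the classical monocytes that leave the bone marrow and enter injured tissue, where they can turn into macrophages. In the blood they also give rise to patrolling Ly6Clow monocytes, a step that depends on the nuclear receptor Nr4a1. Type I interferons act on them through a receptor that activates the complex ISGF3, which binds the interferon-stimulated response element in the promoters of antiviral genes, and interferon-gamma raises a second group of genes that includes large GTPases and the proteins of antigen presentation.

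Genes with an interferon-stimulated response element before their start were among those with the clearest fall at 14 d, and the promoters below show it. Each line is 100 bases upstream of an annotated start of the named gene (RefSeq sequence, build GRCm38.p6), written from 5′ to 3′ on the strand of the gene. Capitals mark the element, GAAA and GAAA separated by any 2 bases, or its reverse complement, and a longer run of capitals holds overlapping copies.
Phf11b (chr14:59341351-59341450, minus strand): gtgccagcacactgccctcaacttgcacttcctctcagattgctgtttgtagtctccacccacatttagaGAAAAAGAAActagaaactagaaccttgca
Oas1a (chr5:120907526-120907625, minus strand): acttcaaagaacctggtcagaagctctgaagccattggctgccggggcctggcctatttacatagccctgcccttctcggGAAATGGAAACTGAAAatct
Isg15 (chr4:156200855-156200954, minus strand): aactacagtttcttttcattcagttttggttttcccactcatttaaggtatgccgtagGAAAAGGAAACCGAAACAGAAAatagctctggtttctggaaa
Ifit1 (chr19:34640734-34640833, plus strand): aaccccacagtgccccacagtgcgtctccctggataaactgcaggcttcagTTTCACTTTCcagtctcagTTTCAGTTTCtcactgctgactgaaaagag
Tgtp2 (chr11:49064253-49064352, minus strand): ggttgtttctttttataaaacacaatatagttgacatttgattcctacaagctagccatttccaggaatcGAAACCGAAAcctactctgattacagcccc
Irgm1 (chr11:48871421-48871520, minus strand): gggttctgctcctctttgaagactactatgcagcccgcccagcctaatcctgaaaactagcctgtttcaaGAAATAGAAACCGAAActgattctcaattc

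Among the 12 genes with the largest rise (called, with no overlap between groups), 3 of those with a matched promoter had an AP-1 site, TGANTCA, bound by Fos and Jun family proteins, and their promoters are shown in the same way, with the site in capitals.
Sphk1 (chr11:116531714-116531813, plus strand): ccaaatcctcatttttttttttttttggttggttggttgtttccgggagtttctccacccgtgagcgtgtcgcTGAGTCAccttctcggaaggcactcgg
AA467197 (chr2:122637741-122637840, plus strand): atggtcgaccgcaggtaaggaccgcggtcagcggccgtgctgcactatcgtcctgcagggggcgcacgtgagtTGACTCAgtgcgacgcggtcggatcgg
Mmp12 (chr9:7347257-7347356, plus strand): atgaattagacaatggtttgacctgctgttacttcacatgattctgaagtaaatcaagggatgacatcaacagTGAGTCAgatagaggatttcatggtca

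Both strands were searched over 300 bases per promoter, from 250 before to 50 after the start, and 7174 of the 8895 genes had a promoter matched by symbol. The interferon-stimulated response element was present in 3.99% of all promoters and 4.08% of the promoters of the genes described here. It was present in 90 of 700 promoters (12.9%) of genes called lower at 14 d, in 13 of 371 (3.50%) of those called higher and in 3.11% of those not called, and in 4 of the 90 it shared bases with an interferon-gamma activated site, TTCNNNGAA. The AP-1 site was present in 8.97% of all promoters and 6.34% of the promoters of the genes described here. It was present in 49 of 371 promoters (13.2%) of genes called higher, in 8.86% of those called lower and in 5.64% of those not called. In 3 of the 49 it shared bases with an antioxidant response element, TGACNNNGC. The AP-1 site was also in 15 of 59 promoters (25.4%) of type I interferon-stimulated genes called lower. For interferon-gamma-inducible GTPases called lower it was in 3 of 11 (27.3%). A match of letters is a description of the window and does not show that a factor bound there.

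Total counts per library were 22135815 to 28789639 in controls, 21131493 to 27013525 at 14 d and 15451460 to 20036958 at 3 d, and 3 counts in a library correspond to 0.121 to 0.161 CPM. Between 24775 and 30865 genes were detected per control library and 24829 to 32492 per 14 d library, against 40119 to 41134 at 3 d. Xist had 960 to 4260 counts in every control library and 1 to 6 in every 14 d library, while 4 genes of the Y chromosome summed to 1 to 3 counts in controls and 1949 to 3033 at 14 d. The labels do not give the sex. By these counts every control library had a female pattern and every 14 d library a male pattern, so sex and the 14 d time point cannot be told apart. Only autosomal genes are described, and their changes at 14 d share this limit. The 3 d libraries had 552 to 1217 Xist counts and 0 to 2 counts of the Y genes, as in controls, so differences between 3 d and 14 d share it too.

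The sorted cells had the markers of their label in every library. Summed CPM of 8 Ly6Chi monocyte genes was 8671 to 13602 in controls and 6479 to 8688 at 14 d. Markers of other cells were present as well. The sum of 10 natural killer (NK) cell genes was 515, 774, 2005 and 1709.6 CPM in the 4 controls and 25.4 to 47.5 CPM at 14 d, and that of 9 B cell genes was 1035 to 3336 CPM in controls and 435 to 659.6 CPM at 14 d. Most of the fall in the B cell sum was that of Igkc (means of 1518 and 254 CPM), which was not called (edgeR adjusted p = 0.0549). Of the 9 B cell genes, 6 were called lower and 0 higher. Erythroid and platelet genes summed to 187 to 3358 CPM in controls, the highest in control sample 3, and to 71.7 to 153 CPM at 14 d. Markers of mature or interstitial macrophages summed to 487 to 587 CPM in controls and 1265 to 2417 CPM at 14 d, and those of neutrophils to 613 to 931 and 1107 to 2051 CPM. Of the 15 neutrophil genes, 3 were called higher and 0 lower. The largest part of the rise in their sum was that of Mmp8 (means of 195 and 566 CPM). S100a8, S100a9 and Ly6g were not called, nor was Csf3r, which went the other way (means of 426 and 289 CPM). Sums for conventional dendritic cells were 337 to 559.8 CPM in controls and 194 to 257 CPM at 14 d, and those for plasmacytoid dendritic cells 303 to 337 and 128 to 155 CPM. Most of the latter sum was Bst2, which is also an interferon-stimulated gene (means of 232 and 88.7 CPM), and Siglech, Ccr9 and Tcf4 were not called. Of the 9 conventional dendritic cell genes, 1 was called higher and 2 lower. Most of the fall in their sum was that of Cd209a (means of 223 and 30.9 CPM), which was not called (edgeR adjusted p = 0.0524). Flt3 was called higher (0.71, edgeR adjusted p = 0.0293). Its call was lost without control sample 1, 2 or 4 or 14 d sample 3 or 4 (edgeR adjusted p 0.0557 to 0.139). The study's methods describe a gate on viable CD45+ single cells, which would leave out epithelial and red cells, and on CD11c- cells, which would leave out CD11c+ dendritic cells and alveolar macrophages. Resident alveolar macrophages, eosinophils, Ly6G+ and CD3+ cells were excluded by antigen, and no NK or B cell antigen is named. The methods print the monocytes as SigF+ and the discussion prints them as SigF-, and the study also describes them as CD64-. In such bulk samples, fewer cells of a type and less RNA per cell cannot be told apart.

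**Figure D1:**
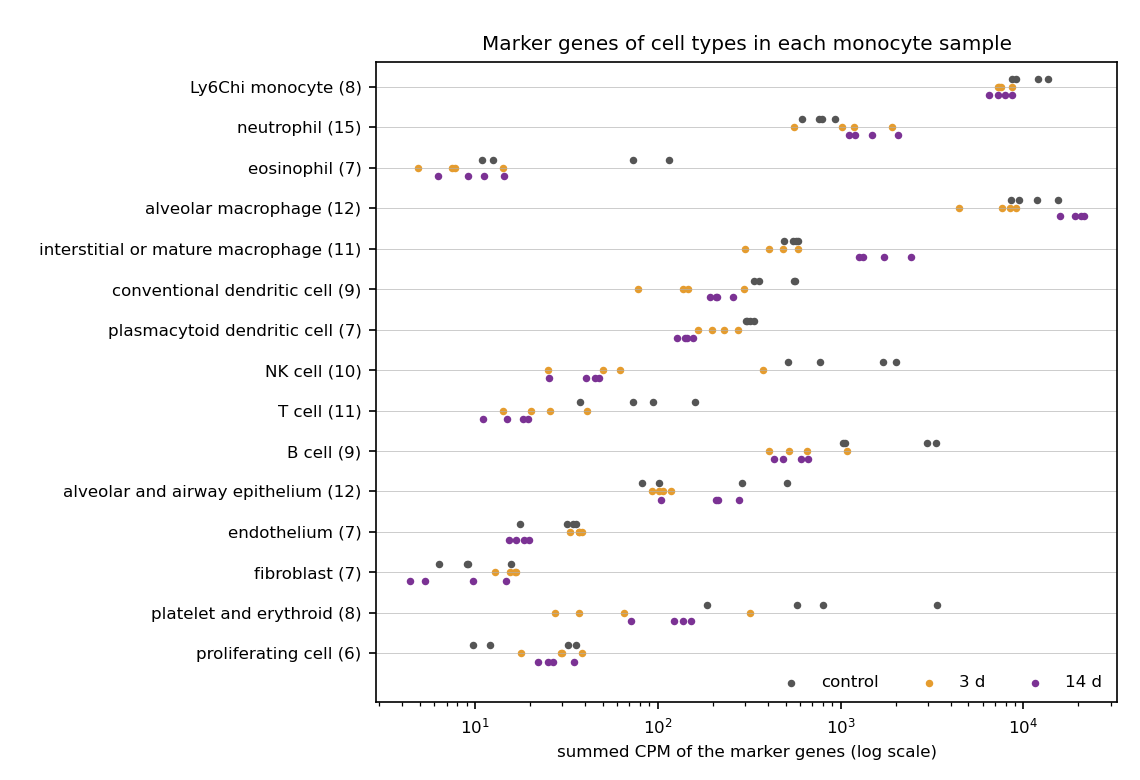
Summed CPM of marker genes of 15 cell types (log scale, number of genes in parentheses) in each control, 3 d and 14 d monocyte sample, 1 point per sample. NK cell markers were 515 to 2005 CPM in controls and 25.4 to 47.5 CPM at 14 d, while mature macrophage markers were 487 to 587 CPM in controls and 1265 to 2417 CPM at 14 d.

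A gene was called changed at a Benjamini-Hochberg adjusted p-value under 0.05 by edgeR's quasi-likelihood test and a fold change above 1.5, both over all genes tested. Of the 8895 genes, 1341 (15.1%) were called at 14 d, against 8.56% of all genes tested (3.22% higher, 5.34% lower). Of the 8172 genes that reached 5 CPM in both groups, 1001 (12.2%) were called, 310 higher and 691 lower. Over all 8895, the called genes comprised 462 higher (5.19%) and 879 lower (9.88%), so that 34.5% of calls were higher, and with scaling by library size alone this share was 46.4% (582 higher, 672 lower). That scaling moved the median log2 fold change of the 8895 genes from -0.02 to 0.09. Leaving out 14 d sample 3 reduced the calls to 828 (263 higher, 565 lower), leaving out 14 d sample 2 reduced the lower calls to 584 and leaving out control sample 2 reduced the higher calls to 304. Among the called genes, 149 rose by more than 2 on the log2 scale and 179 fell by more than 2. Control and 14 d samples did not overlap for 1956 genes (22%), with the 14 d samples above in 8.27% of the 8895 genes and below in 13.7%, and 1204 of these genes were called.

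The genes were put into 5 bins of equal size by mean level. Lower calls made up 15.3% of the bin of highest level and 6.01% to 10.3% of the other bins, whereas higher calls made up 8.26% of the bin of lowest level and 3.37% to 5.51% of the others. Genes called lower accounted for 23.5% of all CPM in controls and 13.4% at 14 d, and genes called higher for 3.10% and 7.36%. At the limit of the selection, Slc46a1 (4.21 CPM in controls, 5.01 at 14 d) was just inside and Zdhhc1 (3.62 and 4.998) just outside.

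**Figure D2:**
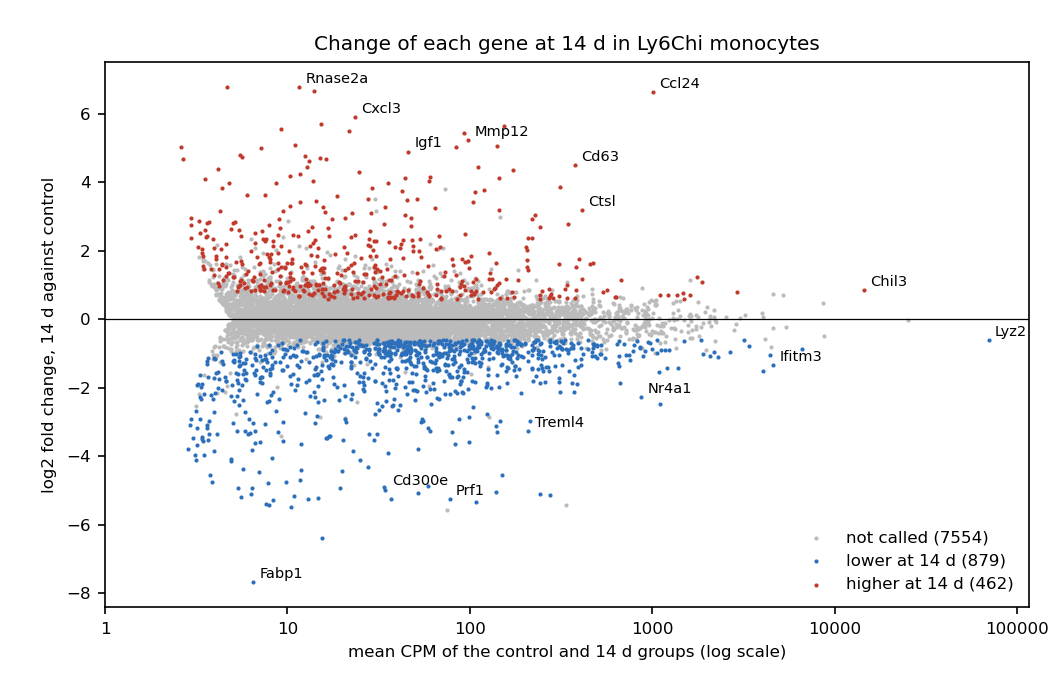
Log2 fold change of each of 8895 genes at 14 d against control over its mean CPM (log scale), 1 point per gene. The 879 genes called lower (blue) reach the highest levels, the 462 called higher (red) spread up to a log2 fold change of 6.79, and 7554 genes (grey) were not called.

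The response to type I interferon was lower at 14 d across most of its genes. Each list of genes below is described by its counts, with the share of its genes in parentheses, and its median. Over all 8895 genes 5.19% were called higher and 9.88% lower, with a median log2 fold change of -0.02, and a share near these is no result about a list. Medians of 4 lists that lay within 0.1 of 0, those of classical monocyte genes, Fc and complement genes, glycolysis and the unfolded protein response, were above 0 with library size scaling. Of 81 type I interferon-stimulated genes, 69 (85.2%) were called lower and 2 (2.47%) higher, with a median log2 fold change of -1.56. Ifi27l2a, a mitochondrial protein strongly induced by interferon, was at 1759, 2081, 1778 and 1796 CPM in the controls and at 351, 351, 284 and 355 CPM at 14 d. It fell by 2.47 on the log2 scale (SE 0.15, edgeR adjusted p = 6.98e-07). Phf11b (chr14:59320964-59341351, minus strand), a zinc finger gene of the interferon response, fell from 230.3, 229, 172 and 235 CPM to 28.8, 29.3, 26.7 and 42.1 CPM (log2 fold change -2.77, SE 0.19, edgeR adjusted p = 1.57e-06), and its neighbour Phf11a from 61.7, 53.1, 49.7 and 60.7 CPM to 5.29, 4.44, 5.48 and 6.97 CPM (log2 fold change -3.34, SE 0.23, edgeR adjusted p = 1.57e-06). Both are close copies of each other, and reads may be shared between them. For all 3 genes the highest 14 d sample lay far below the lowest control.

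Members of the 2′-5′ oligoadenylate synthetase family, which sense double-stranded RNA and activate RNase L, fell with 1 exception among the 7 described. Oas1a was at 377, 438, 399 and 295 CPM in controls and at 115, 103, 94.8 and 103 CPM at 14 d. It fell by 1.86 on the log2 scale (SE 0.16, edgeR adjusted p = 1.16e-05). Its close copy Oas1g was at 69.8, 79.2, 54.8 and 53.1 CPM and 12.1, 11.2, 13.1 and 9.43 CPM (log2 fold change -2.49, SE 0.19, edgeR adjusted p = 4.18e-06), and Oas3 at 110.2 to 197 CPM and 13.8 to 31.0 CPM (log2 fold change -2.90, SE 0.27, edgeR adjusted p = 2.15e-05). Oasl1, an inhibitor of Irf7 translation, was at 60.5, 57.8, 52.0 and 47.0 CPM in controls and 7.10, 10.1, 8.67 and 9.11 CPM at 14 d. It fell by 2.63 on the log2 scale (SE 0.19, edgeR adjusted p = 2.22e-06). Groups did not overlap for any of these genes. Oas2 and Oasl2 fell as well, whereas Oas1c, which lies between the family genes on chromosome 5, was at 5.10 ± 1.41 CPM in controls and 4.30 ± 0.98 CPM at 14 d (SD, n = 4 each) and was not called (log2 fold change -0.25, edgeR adjusted p = 0.654). Rtp4, a chaperone with antiviral activity, fell from 292, 232, 195 and 272 CPM to 24.7, 26.4, 23.5 and 39.7 CPM (log2 fold change -3.12, SE 0.24, edgeR adjusted p = 4.18e-06), and Lgals3bp, a secreted galectin-3 ligand, from 614, 512, 473 and 424 CPM to 123, 121, 111 and 113 CPM (log2 fold change -2.11, SE 0.19, edgeR adjusted p = 1.59e-05).

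Genes that make up the core of the antiviral program were lower to a like extent. Isg15, a ubiquitin-like protein, was at 103 ± 10.8 CPM in controls and 18.6 ± 2.67 CPM at 14 d (SD, n = 4 each; log2 fold change -2.47, SE 0.26, edgeR adjusted p = 4.57e-05). The protease that removes it from proteins, Usp18, was at 124 to 221 CPM in controls and 19.7 to 33.1 CPM at 14 d (log2 fold change -2.84, SE 0.26, edgeR adjusted p = 1.59e-05). Ifit1 and Ifit3, which bind viral RNA, changed by -2.77, edgeR adjusted p = 2.15e-04, and -3.30, edgeR adjusted p = 5.83e-04, on the log2 scale. Rsad2, the enzyme viperin, changed by -2.97, edgeR adjusted p = 1.29e-04. The GTPase gene Mx1 (-1.95, edgeR adjusted p = 5.83e-05), the signalling component Stat2 (-1.47, edgeR adjusted p = 9.61e-04) and the membrane protein Ifitm3 (-1.32, edgeR adjusted p = 2.54e-05) were lower as well.

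Not every gene of the list moved. Ifitm2, a close relative of Ifitm3, was among the 5 least changed genes with a mean above 500 CPM in both groups. It was at 1359 ± 167 CPM in controls and 1359 ± 234 CPM at 14 d (SD, n = 4 each; log2 fold change -4.3e-05, SE 0.14, edgeR adjusted p = 1). The receptor genes Ifnar1 (-0.38, edgeR adjusted p = 0.368) and Ifnar2 (-0.28, edgeR adjusted p = 0.508) and the kinase gene Jak1 (-0.14, edgeR adjusted p = 0.72) were not called. Ifi27, a relative of Ifi27l2a, was at 24.5, 28.02, 40.6 and 26.7 CPM in controls and 50.1, 45.5, 57.3 and 42.3 CPM at 14 d (log2 fold change 0.70, SE 0.17, edgeR adjusted p = 0.02), a call that was lost without control sample 1, 2 or 4 or 14 d sample 1 or 3 (edgeR adjusted p 0.0502 to 0.102, log2 fold change 0.61 to 0.69). Higher calls in the list numbered 0 or 1 without any single control sample or 14 d sample 1, 2 or 3. When control samples 3 and 4, which held the most NK cell markers, were both left out, 69 genes of this list were called lower and 1 higher.

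**Figure D3:**
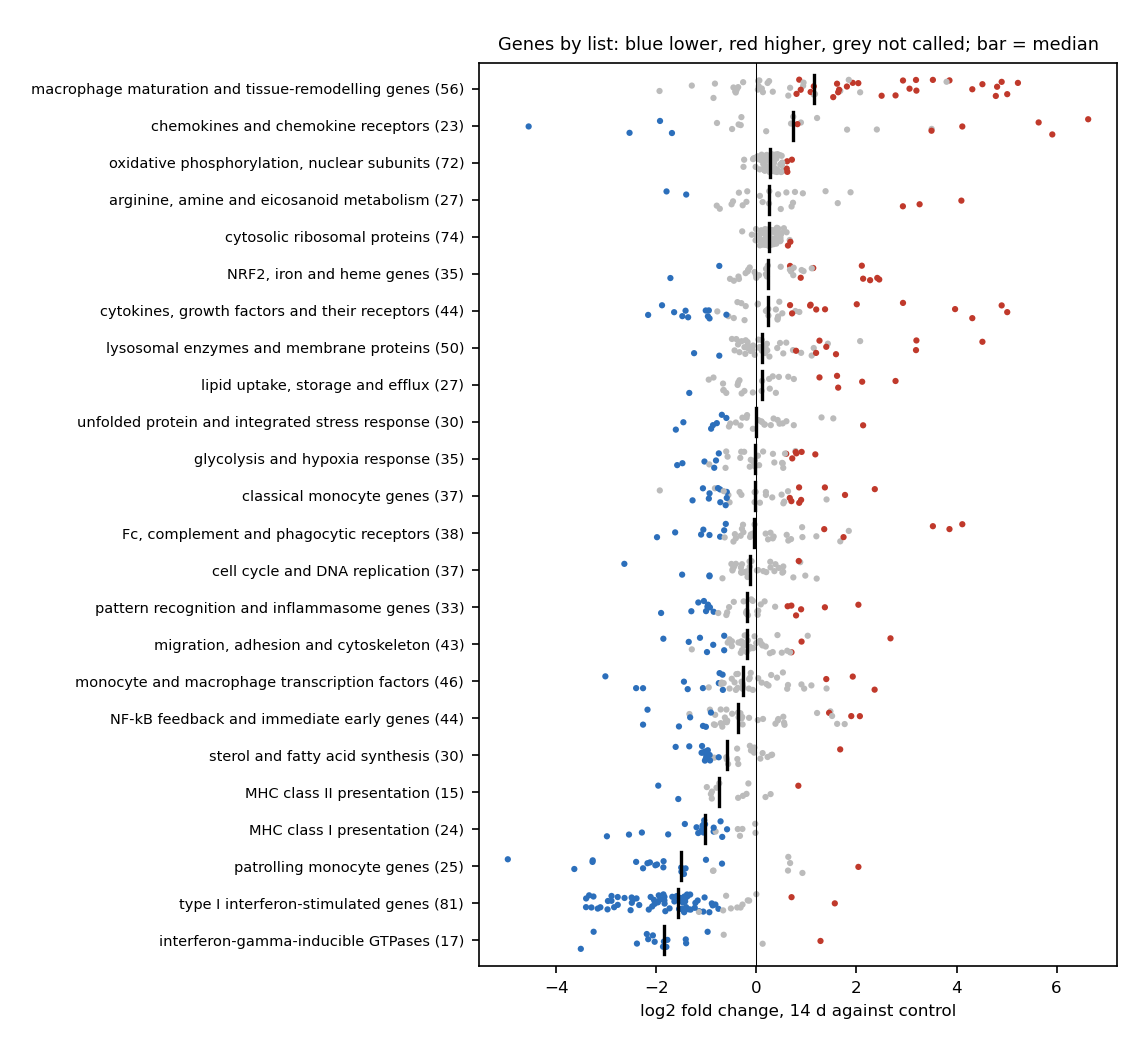
Log2 fold change at 14 d against control of the genes of 24 lists (number of genes in parentheses), 1 point per gene, with blue for genes called lower, red for genes called higher, grey for genes not called and a bar at the median. Interferon-gamma-inducible GTPases (median -1.85) and type I interferon-stimulated genes (median -1.56) lie to the left, and macrophage maturation and tissue-remodelling genes (median 1.15) to the right.

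Genes raised by interferon-gamma followed the same direction. Of 17 genes in the list of interferon-gamma-inducible GTPases and their regulators, 14 (82.4%) were called lower and 1 (5.88%) higher (median log2 fold change -1.85), and 13 to 15 were called lower when a sample was left out. Igtp, an immunity-related GTPase that acts on vacuoles of intracellular parasites, was at 109.6, 119, 79.1 and 78.0 CPM in controls and at 21.8, 23.7, 24.7 and 24.2 CPM at 14 d. It fell by 2.03 on the log2 scale (SE 0.22, edgeR adjusted p = 5.25e-05). It shares 162 exonic bases with the neighbouring Irgm2. Tgtp2, of the same GTPase family, was at 47.3, 41.5, 27.7 and 31.7 CPM in controls and 2.504, 3.60, 2.55 and 4.31 CPM at 14 d. It fell by 3.51 on the log2 scale (SE 0.40, edgeR adjusted p = 8.97e-05). The guanylate-binding proteins Gbp2 (-2.08, edgeR adjusted p = 3.72e-04) and Gbp4 (-3.25, edgeR adjusted p = 7.60e-05), the GTPase Irgm1 (-1.85, edgeR adjusted p = 1.57e-04) and the transcription factor Irf1 (-1.80, edgeR adjusted p = 5.98e-05) were lower, while the receptor chain Ifngr2 was not called (0.13, edgeR adjusted p = 0.874). Jak2, the kinase of that receptor, was the 1 gene called higher, at 19.7, 14.6, 19.2 and 37.3 CPM in controls and 41.4, 55.6, 49.5 and 74.5 CPM at 14 d (log2 fold change 1.281, SE 0.35, edgeR adjusted p = 0.0357), and the call was lost without control sample 1, 2 or 3 or 14 d sample 2, 3 or 4 (edgeR adjusted p 0.0683 to 0.107, log2 fold change 1.06 to 1.32).

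Most genes of antigen presentation to CD8 T cells were lower. Of 24 genes of major histocompatibility complex (MHC) class I presentation, 18 (75%) were called lower and 0 higher (median log2 fold change -1.03). H2-T24, a non-classical class I gene, was at 147, 108, 82.3 and 98.99 CPM in controls and at 19.2, 19.8, 20.3 and 30.1 CPM at 14 d. It fell by 2.29 on the log2 scale (SE 0.24, edgeR adjusted p = 5.25e-05). The classical heavy chain H2-K1 was at 2838, 3099, 3428 and 3099 CPM in controls and 1574, 1430.3, 1422 and 1438 CPM at 14 d (log2 fold change -1.09, SE 0.13, edgeR adjusted p = 9.41e-05), with no overlap. B2m, the light chain of every class I molecule, was lower (-1.04, edgeR adjusted p = 4.20e-04), as were the peptide transporter gene Tap1 (-1.43, edgeR adjusted p = 2.08e-04) and Nlrc5 (-1.76, edgeR adjusted p = 1.48e-04), the transactivator of class I genes. Among the genes not called were the chaperone Canx (-0.02, edgeR adjusted p = 0.957) and Pdia3 (-0.02, edgeR adjusted p = 0.978). Class I genes are close copies of each other, so reads may be shared among them.

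Of 15 class II genes, which present antigen to CD4 T cells, 2 (13.3%) were called lower and 1 (6.67%) higher (median -0.74). This count rested on the fit. With only the control and 14 d samples fitted, 6 class II genes were called lower and 0 higher, and the 14 d samples lay below all controls for 6 genes. The difference between class I and class II genes was not tested. H2-Ob, a chain of the class II modifier H2-O, was at 7.17, 10.7, 8.04 and 9.72 CPM in controls and 3.76, 3.60, 1.76 and 2.94 CPM at 14 d. It fell by 1.56 on the log2 scale (SE 0.31, edgeR adjusted p = 0.00488). The most abundant class II gene, Cd74, was at 4652 to 6805 CPM in controls and 2728 to 3589 CPM at 14 d, and the alpha chain H2-Aa was at 1034 to 1806 and 567 to 765 CPM. Neither was called (log2 fold changes -0.80 and -0.99, edgeR adjusted p = 0.304 and 0.269). Ciita, the master regulator of class II genes, was not called (-0.36, edgeR adjusted p = 0.519). The summed markers of B cells and of conventional dendritic cells, which also carry class II, were lower in every 14 d sample than in any control. Flt3, 1 of the dendritic cell genes, was called higher. The part of these cells was not tested. The costimulatory ligand Cd86 was at 83.0, 71.9, 45.9 and 89.1 CPM in controls and 88.9, 106, 155 and 168 CPM at 14 d (log2 fold change 0.84, SE 0.25, edgeR adjusted p = 0.0477), a call lost without control sample 1, 2 or 3 or 14 d sample 2, 3 or 4 (edgeR adjusted p 0.0674 to 0.179, log2 fold change 0.65 to 0.93).

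Most genes of patrolling monocytes were lower at 14 d. Of 25 such genes, 18 (72%) were called lower and 1 (4%) higher at 14 d (median log2 fold change -1.50), and their median at 3 d, against the same 4 control samples, was -1.78. The 3 d medians of the other lists were below 0 as well. Eno3, a muscle enolase that marks Ly6Clow cells, was at 118, 123, 177 and 193 CPM in controls, 14.4, 54.8, 33.1 and 53.3 CPM at 3 d and 10.6, 9.61, 15.4 and 13.5 CPM at 14 d. It fell by 3.64 on the log2 scale (SE 0.37, edgeR adjusted p = 3.96e-05). Treml4, a receptor that binds dying cells, was at 324, 299, 429.6 and 464 CPM in controls, 42.01, 90.9, 57.1 and 139 CPM at 3 d and 39.2, 27.2, 38.5 and 52.2 CPM at 14 d. It fell by 3.27 on the log2 scale (SE 0.34, edgeR adjusted p = 4.66e-05). Nr4a1, the nuclear receptor on which patrolling monocytes depend, was at 1511, 1782, 1085 and 1356 CPM in controls, 266, 304, 222 and 380.2 CPM at 3 d and 227, 230.1, 301 and 436 CPM at 14 d. It fell by 2.26 on the log2 scale (SE 0.24, edgeR adjusted p = 4.66e-05). Every 3 d and 14 d sample lay below every control sample for these 3 genes. Cd300e (-4.97, edgeR adjusted p = 8.66e-05), the Fc receptor Fcgr4 (-1.99, edgeR adjusted p = 1.02e-04), the sialoprotein Spn (-2.18, edgeR adjusted p = 3.69e-04) and Ace (-3.27, edgeR adjusted p = 0.00183), which encodes angiotensin-converting enzyme, were lower at 14 d. Itgal, an integrin chain of leukocyte adhesion, was at 1040.3, 928, 1094 and 1124 CPM in controls and 302, 206, 269.9 and 376 CPM at 14 d. It fell by 1.86 on the log2 scale (SE 0.22, edgeR adjusted p = 1.19e-04).

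Control samples 3 and 4 had the higher levels of Cd300e, Fcgr4, Spn and Ace among controls and also the most NK cell markers, and without both of them 15 patrolling genes were called lower and 0 higher. The gene of the list called higher was Clec4n, the C-type lectin dectin-2, which the list of pattern recognition genes holds as well. It was at 37.8, 74.7, 124 and 84.5 CPM in controls and 187, 306, 478 and 348 CPM at 14 d (log2 fold change 2.04, SE 0.50, edgeR adjusted p = 0.025), a call lost without control sample 1, 2 or 4 or 14 d sample 2, 3 or 4 (edgeR adjusted p 0.0584 to 0.0918, log2 fold change 1.80 to 2.08).

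The list of classical monocyte genes was split. Of 37 genes, 8 (21.6%) were called higher and 10 (27.0%) lower, with a median log2 fold change of -0.03. Ly6c2, which encodes the Ly6C antigen used for the sort, was at 3281, 2719, 2569.5 and 2896 CPM in controls, 2668, 2737, 3459 and 2915 CPM at 3 d and 1789.8, 1529.6, 1359.8 and 1314 CPM at 14 d (log2 fold change -0.94, SE 0.13, edgeR adjusted p = 4.82e-04), so that all 14 d samples lay below all others. Irf8, a transcription factor of monocyte and dendritic cell development, was lower (-1.07, edgeR adjusted p = 0.00183), as was Ly86 (-0.72, edgeR adjusted p = 0.0033). The coagulation factor gene F13a1 was not called (0.07, edgeR adjusted p = 0.923). Clec4d, a C-type lectin receptor for mycobacterial lipid, rose from 24.7, 30.3, 24.6 and 34.6 CPM to 56.4, 65.4, 97.97 and 75.4 CPM (log2 fold change 1.37, SE 0.21, edgeR adjusted p = 8.70e-04), and Vcan, the proteoglycan versican, from 112, 50.3, 58.8 and 61.0 CPM to 398, 349.9, 375 and 336 CPM (log2 fold change 2.37, SE 0.24, edgeR adjusted p = 3.67e-05). Higher calls numbered 5 without control sample 3 and 4 without 14 d sample 3, and lower calls numbered 6 without control sample 1, 5 without 14 d sample 2 and 6 without 14 d sample 3.

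NK cell genes made up most of the largest falls. The 12 genes with the largest falls among those called with no overlap between groups included 9 that NK cells are known to express. Prf1, the pore-forming protein of cytotoxic granules, was at 62.4, 113, 262 and 164 CPM in controls and 5.38, 5.42, 1.49 and 3.55 CPM at 14 d. It fell by 5.25 on the log2 scale (SE 0.97, edgeR adjusted p = 0.00585). Fasl, a death ligand of cytotoxic cells, was at 13.8, 22.8, 39.2 and 47.2 CPM in controls and 0.649, 0.444, 0.160 and 0.202 CPM at 14 d. It fell by 6.38 on the log2 scale (SE 1.04, edgeR adjusted p = 0.00209). Klrb1c, the NK1.1 antigen, was at 31.0, 47.2, 115 and 95.2 CPM and 1.53, 1.23, 2.39 and 2.42 CPM. It fell by 5.25 on the log2 scale (SE 0.69, edgeR adjusted p = 4.64e-04). In each of these genes control samples 3 and 4 were the highest, as they were for the summed NK markers, of which 10 of 10 genes were called lower. Of the 9 NK marker genes that reached 5 CPM, 4 were called lower without those 2 samples. In that fit the call was kept for Fasl and Klrb1c and lost for Prf1 (log2 fold change -4.46, edgeR adjusted p = 0.0548).

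The lectin-like NK receptors encoded together on chromosome 6 were likewise highest in control samples 3 and 4. Klri2 was at 7.87, 12.5, 18.6 and 20.7 CPM in controls and 0.417, 0.296, 0.106 and 0.564 CPM at 14 d. It fell by 5.38 on the log2 scale (SE 0.57, edgeR adjusted p = 5.08e-05). Klre1 was at 10.4, 12.8, 36.7 and 40.6 CPM and 0.139, 1.33, 0.213 and 0.927 CPM (log2 fold change -5.24, SE 0.92, edgeR adjusted p = 0.00327), and Klrc1, the inhibitory receptor NKG2A, at 7.67, 8.66, 21.2 and 27.3 CPM and 0.417, 0.888, 0.160 and 0.202 CPM (log2 fold change -5.27, SE 1.08, edgeR adjusted p = 0.00861). The last call was lost without control samples 3 and 4 (log2 fold change -4.27, edgeR adjusted p = 0.055). Members of the Ly49 family, which are close copies and may share reads, were Klra8 at 8.66, 6.24, 17.1 and 30.2 CPM in controls and 0.649, 0.345, 0.106 and 0.322 CPM at 14 d (log2 fold change -5.41, SE 0.82, edgeR adjusted p = 8.92e-04) and Klra9 at 15.8, 16.3, 36.5 and 45.9 CPM and 0.974, 1.33, 0.426 and 0.363 CPM (log2 fold change -5.21, SE 0.69, edgeR adjusted p = 3.49e-04). Tbx21, the transcription factor T-bet, was at 1.37, 9.68, 46.9 and 23.8 CPM in controls and 0.0464, 0.542, 0.373 and 0.847 CPM at 14 d. It fell by 5.46 on the log2 scale (SE 1.32, edgeR adjusted p = 0.0247). Its call was lost without control sample 3 or 4 or 14 d sample 1, 2, 3 or 4 (edgeR adjusted p 0.0533 to 0.111, log2 fold change -6.02 to -4.65). Controls 3 and 4 were the highest samples for all 6 genes. What part NK cells had in these values was not tested.

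The remaining genes of largest fall are known from other cells. Fabp1, a fatty acid binding protein of alveolar macrophages, was at 2.73, 2.15, 28.7 and 18.02 CPM in controls and had 0 to 3 counts per library at 14 d (log2 fold change -7.68, SE 1.18, edgeR adjusted p = 0.0011, a fitted value that depends on the prior count). Bpifa1, an airway secretory protein, was at 1.12, 0.807, 6.35 and 34.99 CPM in controls and 0.0928, 0, 0.692 and 0.403 CPM at 14 d (log2 fold change -5.17, SE 1.36, edgeR adjusted p = 0.0343), and Hba-a2, a haemoglobin alpha chain with a near-identical copy, at 96.4, 27.0, 583 and 141 CPM and 13.3, 4.59, 2.55 and 0.484 CPM (log2 fold change -5.34, SE 1.48, edgeR adjusted p = 0.0489). Their levels in controls ranged widely, with the highest in control 3 for Fabp1 and Hba-a2 and in control 4 for Bpifa1. Markers of those cells summed to 8575 to 15475 CPM in controls and 15838 to 21328 CPM at 14 d for alveolar macrophages, and to 82.1 to 511 CPM and 105 to 279 CPM for epithelium. The rise of the former sum was that of 1 gene, Chil3, which Ly6Chi monocytes also express (means of 10294 and 18637 CPM). Of the 12 alveolar macrophage markers, 10 had a log2 fold change below 0, and Fabp1, Cidec (-5.15, edgeR adjusted p = 0.00355) and Ear1 (-2.997, edgeR adjusted p = 0.04) were called lower. The part of those cells in these values was not tested. The call for Bpifa1 was lost without control sample 3 or 4 or 14 d sample 1, 2, 3 or 4 (edgeR adjusted p 0.0538 to 0.114, log2 fold change -5.92 to -3.19), and that for Hba-a2 without control sample 1, 2, 3 or 4 or 14 d sample 1, 2, 3 or 4 (edgeR adjusted p 0.0644 to 0.172, log2 fold change -6.39 to -4.07). With control samples 3 and 4 both left out, Bpifa1 was at -1.68 (edgeR adjusted p = 0.374) and Hba-a2 at -3.55 (edgeR adjusted p = 0.24).

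A further group of lower genes had small errors. Il12rb2, a chain of the interleukin 12 receptor, fell from 18.1, 11.5, 18.1 and 22.01 CPM to 1.67, 0.986, 1.81 and 1.49 CPM (log2 fold change -3.54, SE 0.30, edgeR adjusted p = 1.16e-05), although it shares 1519 exonic bases with Serbp1 on the other strand. Rap1gap2, an inactivator of the small GTPase Rap1, fell from 182, 136, 129 and 152 CPM to 35.9, 28.5, 28.5 and 42.05 CPM (log2 fold change -2.15, SE 0.18, edgeR adjusted p = 1.16e-05). Both 14 d groups lay below every control. Sh2d3c, an adaptor of cell adhesion signalling, was at 176, 120.1, 133 and 108 CPM in controls and 35.8, 29.1, 26.2 and 34.8 CPM at 14 d (log2 fold change -2.09, SE 0.18, edgeR adjusted p = 1.18e-05), and Cdc42ep2, an effector of the small GTPase Cdc42, at 74.7, 67.6, 82.7 and 64.6 CPM and 18.4, 23.3, 19.5 and 20.04 CPM (log2 fold change -1.83, SE 0.16, edgeR adjusted p = 1.56e-05). Again no 14 d sample reached a control sample. Pilrb1, an activating receptor of myeloid cells with close copies in the genome, was at 182, 173, 207 and 193 CPM and 54.6, 58.5, 61.8 and 70.1 CPM. It fell by 1.62 on the log2 scale (SE 0.15, edgeR adjusted p = 1.98e-05).

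Many genes of macrophage maturation and tissue remodelling rose. Of 56 genes, 27 (48.2%) were called higher, 0 lower and 29 not, with a median log2 fold change of 1.15, and 10 had a log2 fold change below 0. When a sample was left out, 19 to 27 were called higher, and 1 was called lower without control sample 1 or 2 or 14 d sample 4. Ctsl, the lysosomal protease cathepsin L, was at 82.7, 71.4, 85.5 and 85.7 CPM in controls, 115, 74.4, 109.9 and 81.5 CPM at 3 d and 520.2, 759, 1009.6 and 681 CPM at 14 d (log2 fold change 3.19, SE 0.21, edgeR adjusted p = 1.57e-06), with 1742 exonic bases shared with a gene on the other strand. Whether counting used strand is not stated, so reads over such bases cannot be told apart. Igf1, a growth factor for epithelium and fibroblasts, was at 1.95, 2.53, 5.31 and 2.07 CPM in controls, 7.96, 3.37, 15.5 and 6.63 CPM at 3 d and 41.97, 84.9, 124 and 105 CPM at 14 d. It rose by 4.90 on the log2 scale (SE 0.52, edgeR adjusted p = 7.71e-05). Stab1, a scavenger receptor of tissue macrophages, rose from 3.77, 4.89, 6.71 and 2.16 CPM to 26.9, 43.4, 80.7 and 51.3 CPM (log2 fold change 3.53, SE 0.44, edgeR adjusted p = 1.72e-04). The 14 d samples lay above all control and 3 d samples for these 3 genes, and within the 14 d group sample 1 was the lowest and sample 3 the highest.

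Further genes of the list included growth factors, receptors and matrix proteins. Pdgfa, a ligand for mesenchymal cells, was at 0.0829, 0.753, 0.442 and 0.448 CPM in controls and 4.59, 18.6, 17.7 and 14.4 CPM at 14 d. It rose by 5.01 on the log2 scale (SE 0.62, edgeR adjusted p = 1.46e-04). Pdpn, the membrane glycoprotein podoplanin, was at 0.290, 0.753, 1.45 and 0.976 CPM in controls and 13.3, 22.1, 40.4 and 20.7 CPM at 14 d. It rose by 4.78 on the log2 scale (SE 0.55, edgeR adjusted p = 8.66e-05). Trem2, a receptor for lipids and dying cells, was higher (1.63, edgeR adjusted p = 6.65e-04), as were the macrophage membrane protein Ms4a7 (1.81, edgeR adjusted p = 1.29e-04), the matrix protein Tgfbi (1.08, edgeR adjusted p = 1.29e-04), the complement chain C1qb (3.86, edgeR adjusted p = 0.00305) and the lectin Lgals3 (0.80, edgeR adjusted p = 0.00197). Mmp12, macrophage elastase, was at 0.994, 4.95, 10.1 and 4.31 CPM in controls, 14.2, 5.48, 159.9 and 119 CPM at 3 d and 70.3, 119.9, 245 and 328 CPM at 14 d (log2 fold change 5.23, SE 1.15, edgeR adjusted p = 0.0159), and its call was lost without control sample 1, 2 or 4 or 14 d sample 3 or 4 (edgeR adjusted p 0.0515 to 0.0686, log2 fold change 4.81 to 5.22). Cd63, a tetraspanin of lysosomes and exosomes, was at 6.22, 21.6, 65.1 and 33.6 CPM in controls and 342, 800.2, 1129.8 and 626 CPM at 14 d (log2 fold change 4.52, SE 0.97, edgeR adjusted p = 0.0142), a call lost without control sample 2 or 4 (edgeR adjusted p 0.0559 to 0.0646, log2 fold change 4.37 to 4.54). Several well-known macrophage genes were not called, among them the mannose receptor Mrc1 (1.68, edgeR adjusted p = 0.143), Cd163 (0.94, edgeR adjusted p = 0.0948) and Adgre1 (0.22, edgeR adjusted p = 0.511), which encodes F4/80. The summed markers of mature macrophages, of which 5 of 11 were called higher and 1 lower, did not overlap between controls and 14 d. CD64, which the study used as a marker of mature macrophages and by whose absence it describes the sorted monocytes, is encoded by Fcgr1, at 303 ± 15.7 CPM in controls and 183 ± 20.7 CPM at 14 d (SD, n = 4 each). What part mature macrophages had in these values was not tested.

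**Figure D4:**
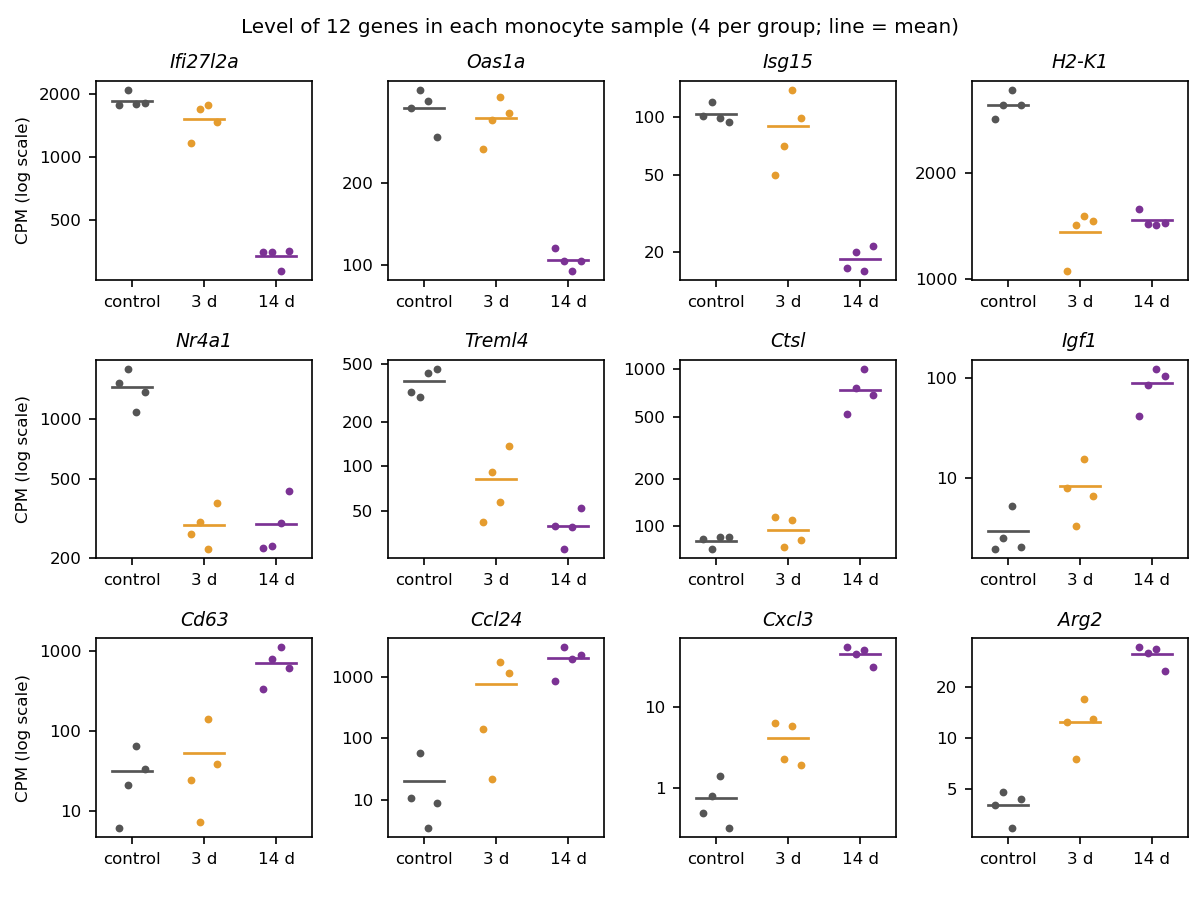
CPM (log scale) of 12 genes in each control, 3 d and 14 d monocyte sample, with 1 point per sample and a line at the mean of 4. For Ifi27l2a, Oas1a and Isg15 the 14 d samples lie below all control and 3 d samples, for H2-K1, Nr4a1 and Treml4 the 3 d and 14 d samples lie below all controls, and for Ctsl, Igf1, Cxcl3 and Arg2 the 14 d samples lie above all others.

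Genes with the largest rises were mostly near the limit of detection in controls. Rnase2a, an eosinophil-type ribonuclease with close copies, had 0 to 15 counts per control library (0.124, 0.0538, 0.603 and 0 CPM) and was at 16.5, 31.6, 16.7 and 27.3 CPM at 14 d (log2 fold change 6.79, SE 1.34, edgeR adjusted p = 0.00806), a call lost without control samples 3 and 4 (log2 fold change 7.88, edgeR adjusted p = 0.0772). Eosinophil markers summed to 10.9 to 115 CPM in controls and 6.31 to 14.5 CPM at 14 d. The defining gene Epx was near absent in both groups, with 0 to 1 counts per control library and 0 in all 14 d libraries. Msx3, a homeobox gene, had 0 to 5 counts per control library (0.0829, 0.269, 0 and 0 CPM) and was at 4.78, 17.2, 5.85 and 9.15 CPM at 14 d (log2 fold change 6.77, SE 0.87, edgeR adjusted p = 2.14e-04). Slc36a2, a transporter of small amino acids, was at 0.124, 0.0538, 0.684 and 0.163 CPM in controls and 14.2, 23.1, 56.4 and 17.5 CPM at 14 d. It rose by 6.68 on the log2 scale (SE 0.77, edgeR adjusted p = 1.24e-04). Sphk1, the kinase that makes sphingosine 1-phosphate, was at 0.249, 1.51, 0.844 and 1.18 CPM and 21.1, 39.7, 54.7 and 55.5 CPM. It rose by 5.51 on the log2 scale (SE 0.59, edgeR adjusted p = 7.08e-05). Flrt3, a cell adhesion protein, was at 0.0414, 1.72, 0.161 and 0.488 CPM and 15.6, 29.2, 28.7 and 45.6 CPM. It rose by 5.69 on the log2 scale (SE 0.77, edgeR adjusted p = 4.82e-04). No 14 d sample reached the control range in these 5 genes, but they were picked among genes without overlap, so the choice required it. Their means reached 5 CPM only at 14 d. At 3 d the levels were 1.03 to 5.48 CPM for Slc36a2, 2.87 to 13.3 CPM for Sphk1 and 0.763 to 34.7 CPM for Rnase2a, the last with samples on both sides of the 14 d range.

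Other large rises concerned secreted and membrane proteins. Inhba, the activin A subunit, was at 0.331, 0.484, 0.442 and 0.285 CPM in controls and 15.2, 15.4, 17.2 and 24.7 CPM at 14 d. It rose by 5.55 on the log2 scale (SE 0.52, edgeR adjusted p = 2.12e-05). Ankrd55, an ankyrin repeat protein, was at 0.290, 1.34, 0.603 and 0.285 CPM and 10.8, 29.2, 20.3 and 24.8 CPM. It rose by 5.11 on the log2 scale (SE 0.66, edgeR adjusted p = 2.64e-04). AA467197, which encodes the small mitochondrial protein Nmes1 and hosts a microRNA, was at 0.994, 8.82, 4.74 and 2.20 CPM and 109, 225, 203 and 185 CPM (log2 fold change 5.44, SE 1.14, edgeR adjusted p = 0.0125), and its call was lost without control sample 1 or 4 (edgeR adjusted p 0.0521 to 0.0563, log2 fold change 5.12 to 5.22).

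Among higher genes with the smallest p-values, all 14 d samples lay well above all controls. Tarm1, an activating receptor of myeloid cells, was at 13.1, 16.7, 16.7 and 13.02 CPM in controls, 50.01, 33.3, 86.8 and 71.6 CPM at 3 d and 179.7, 176, 215 and 219 CPM at 14 d. It rose by 3.73 on the log2 scale (SE 0.26, edgeR adjusted p = 2.22e-06). Esr1, oestrogen receptor alpha, was at 3.56, 4.14, 5.19 and 5.98 CPM in controls, 35.1, 37.6, 29.0 and 18.2 CPM at 3 d and 27.9, 32.6, 45.8 and 56.3 CPM at 14 d. It rose by 3.10 on the log2 scale (SE 0.29, edgeR adjusted p = 2.06e-05). In both genes the 3 d samples too lay above all controls. Anpep, the aminopeptidase CD13, was at 0.580, 1.72, 1.69 and 0.895 CPM and 17.99, 32.7, 36.1 and 37.97 CPM. It rose by 4.68 on the log2 scale (SE 0.46, edgeR adjusted p = 2.96e-05). Prnp, the prion protein, was at 1.20, 0.861, 1.77 and 0.814 CPM and 21.2, 20.9, 24.7 and 21.8 CPM. It rose by 4.24 on the log2 scale (SE 0.36, edgeR adjusted p = 1.16e-05). The 14 d samples of Prnp lay close together. Olfml3, a secreted olfactomedin, was at 0.497, 1.13, 1.41 and 1.06 CPM and 14.1, 23.8, 43.6 and 19.3 CPM. It rose by 4.62 on the log2 scale (SE 0.40, edgeR adjusted p = 1.16e-05).

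Chemokine genes moved in both directions. Of 23 chemokines and chemoattractant receptors, 6 (26.1%) were called higher and 4 (17.4%) lower (median log2 fold change 0.74). Ccl24, eotaxin-2, which attracts eosinophils, was at 10.7, 58.1, 3.50 and 8.75 CPM in controls, 142, 21.5, 1697 and 1138 CPM at 3 d and 843, 3007, 1941 and 2206 CPM at 14 d (log2 fold change 6.63, SE 1.43, edgeR adjusted p = 0.0148), with its call lost without control sample 1 or 4 (edgeR adjusted p 0.0641 to 0.0703, log2 fold change 6.36 to 6.42). Cxcl3, a neutrophil chemoattractant, was at 0.497, 0.807, 1.41 and 0.325 CPM in controls, 6.38, 2.33, 5.97 and 1.93 CPM at 3 d and 55.7, 46.1, 51.3 and 31.3 CPM at 14 d. It rose by 5.91 on the log2 scale (SE 0.51, edgeR adjusted p = 1.16e-05). Neither gene had a 14 d sample within the range of the controls, which the rule for naming genes of largest change required. Pf4, platelet factor 4, was at 6.22, 6.51, 9.93 and 6.63 CPM and 54.8, 86.2, 128 and 62.4 CPM (log2 fold change 3.50, SE 0.31, edgeR adjusted p = 1.46e-05). The platelet markers Ppbp (0.08, edgeR adjusted p = 0.93) and Gp9 (-0.40, edgeR adjusted p = 0.609) were not called and Itga2b was lower (-2.13, edgeR adjusted p = 0.0254), and the fall in the summed erythroid and platelet markers was mostly that of the haemoglobin genes Hba-a1 and Hbb-bs. Ccl7, a monocyte chemoattractant, was at 3.52, 15.7, 1.17 and 3.99 CPM in controls and 163, 284, 437 and 319 CPM at 14 d (log2 fold change 5.64, SE 1.09, edgeR adjusted p = 0.00815), and its call was lost without control samples 3 and 4 (log2 fold change 4.99, edgeR adjusted p = 0.0949).

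Lower calls included the ligands Ccl5 and Cxcl10, which attract T and NK cells, and the receptor S1pr4. Ccl5 was at 103, 146, 485 and 420.4 CPM in controls and 11.3, 17.1, 9.31 and 11.6 CPM at 14 d (log2 fold change -4.55, SE 1.04, edgeR adjusted p = 0.0197), highest in control samples 3 and 4 like the NK markers, and its call was lost without control sample 3 or 4 or 14 d sample 1, 2, 3 or 4 (edgeR adjusted p 0.0505 to 0.0936, log2 fold change -4.73 to -4.18). Cxcl10 was at 59.2, 52.6, 25.7 and 29.6 CPM and 3.48, 13.5, 10.4 and 16.6 CPM (log2 fold change -1.93, SE 0.46, edgeR adjusted p = 0.0183), lost without control sample 1 or 2 or 14 d sample 2 or 3 (edgeR adjusted p 0.0504 to 0.0648, log2 fold change -2.02 to -1.71). S1pr4, a sphingosine 1-phosphate receptor of leukocytes, was at 7.71, 7.10, 17.9 and 10.9 CPM in controls and 3.90, 4.34, 2.501 and 2.78 CPM at 14 d (log2 fold change -1.69, SE 0.34, edgeR adjusted p = 0.00585), a call lost without control samples 3 and 4 (log2 fold change -1.12, edgeR adjusted p = 0.0622). The number of lower calls in the list was 1 without 14 d sample 2 or 3 or without both control samples 3 and 4, and 2 without control sample 2, 3 or 4 or 14 d sample 1 or 4.

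Of 44 cytokines, growth factors and their receptors, 12 (27.3%) were called higher and 11 (25%) lower (median 0.22), and the lower calls numbered 7 without 14 d sample 3. Il18, an inflammasome-dependent cytokine, was at 62.4, 64.2, 73.4 and 83.3 CPM in controls and 28.8, 27.8, 27.9 and 25.6 CPM at 14 d. It fell by 1.36 on the log2 scale (SE 0.14, edgeR adjusted p = 4.66e-05). Il27 (-2.16, edgeR adjusted p = 1.82e-04), a regulator of T cells, and Il15 (-1.64, edgeR adjusted p = 4.79e-04), a survival factor of NK cells, were lower, as were the tumour necrosis factor receptors Tnfrsf1a (-0.94, edgeR adjusted p = 4.33e-04) and Tnfrsf1b (-1.41, edgeR adjusted p = 8.83e-04). The interleukin 1 receptor antagonist Il1rn rose from 36.4, 61.0, 58.5 and 48.3 CPM to 212, 327, 509 and 508 CPM (log2 fold change 2.93, SE 0.41, edgeR adjusted p = 5.39e-04), and the macrophage growth factor Csf1 from 3.02, 4.25, 6.23 and 3.58 CPM to 16.5, 60.4, 82.5 and 109 CPM (log2 fold change 3.97, SE 0.64, edgeR adjusted p = 0.00171). The 14 d samples lay outside the control range for each gene. The inflammatory cytokines Il1b (-0.30, edgeR adjusted p = 0.561) and Tnf (0.78, edgeR adjusted p = 0.203) were not called.

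Sensors of microbes and cell damage moved in both directions. Of 33 pattern recognition and inflammasome genes, 6 (18.2%) were called higher and 9 (27.3%) lower (median -0.19). Nod1, a cytosolic sensor of bacterial cell wall, was at 153, 224, 206 and 202 CPM in controls, 85.7, 89.9, 104 and 84.9 CPM at 3 d and 53.5, 36.5, 46.9 and 72.8 CPM at 14 d (log2 fold change -1.90, SE 0.20, edgeR adjusted p = 4.66e-05), and Gsdmd, the pore-forming executioner of pyroptosis, changed by -1.01, edgeR adjusted p = 3.64e-04. The higher calls numbered 1 to 3 without control sample 1, 3 or 4 or 14 d sample 2, 3 or 4, and 14 d sample 3 gave the lowest number. Of 38 Fc, complement and phagocytic receptor genes, 5 (13.2%) were called higher and 8 (21.1%) lower (median -0.05), among them F10, coagulation factor X, which rose from 165, 196, 210.0 and 146 CPM to 599, 627, 667 and 555 CPM (log2 fold change 1.77, SE 0.17, edgeR adjusted p = 2.80e-05), and the Fc receptor Fcgr1, which fell (-0.72, edgeR adjusted p = 0.00336).

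Of 44 immediate early and NF-kB feedback genes, 3 (6.82%) were called higher and 7 (15.9%) lower (median -0.36). Zfp36l1, which destabilises AU-rich messages, rose from 19.1, 26.6, 22.2 and 32.6 CPM to 95.8, 113, 118 and 95.2 CPM (log2 fold change 2.07, SE 0.23, edgeR adjusted p = 6.11e-05), although 1672 of its exonic bases are shared with a gene on the other strand. Fos (-1.07, edgeR adjusted p = 0.00277) and Btg2 (-1.55, edgeR adjusted p = 3.12e-04) were lower, and Egr1 (-0.68, edgeR adjusted p = 0.546) and Jun (1.21, edgeR adjusted p = 0.283) were not called. Lower calls numbered 11 without 14 d sample 4, and higher calls 5 without 14 d sample 1.

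Many genes of cholesterol synthesis were lower. Of 30 genes of sterol and fatty acid synthesis, 13 (43.3%) were called lower and 1 (3.33%) higher (median log2 fold change -0.60). Fdps, farnesyl diphosphate synthase, was at 68.0, 64.1, 69.0 and 70.8 CPM in controls and 34.6, 32.8, 32.9 and 32.98 CPM at 14 d (log2 fold change -1.03, SE 0.14, edgeR adjusted p = 3.10e-04), with 1124 exonic bases shared with another gene on the same strand. Srebf2, the transcription factor that drives these genes, was at 209 to 252 CPM in controls and 84.8 to 144 CPM at 14 d (edgeR adjusted p = 0.00169). Also lower were Fdft1 (-1.09, edgeR adjusted p = 5.27e-04), Idi1 (-1.61, edgeR adjusted p = 0.00649) and the fatty acid synthase Fasn (-1.01, edgeR adjusted p = 0.00649). Fads1, a fatty acid desaturase, was the gene called higher, from 2.82, 3.66, 5.03 and 3.82 CPM to 9.55, 10.8, 16.1 and 12.5 CPM (log2 fold change 1.68, SE 0.30, edgeR adjusted p = 0.00215). Lower calls numbered 7 without control sample 1 or 14 d sample 2 or 3 and 8 without 14 d sample 1, and 8 with library size scaling. The sterol response element TCACNCCAC was found in 1 of 7 promoters available for the lower genes of the list, that of Hmgcs1, against 1.44% of all promoters.

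Lipid uptake and lysosomal genes were mostly not called, with a few clear rises. Of 27 genes of lipid uptake, storage and efflux, 5 (18.5%) were called higher and 1 (3.70%) lower (median 0.11), and higher calls numbered 2 without control sample 2 and 3 without 14 d sample 3. Abca1, which exports cholesterol, rose from 13.7, 18.6, 14.6 and 11.3 CPM to 45.3, 60.4, 97.0 and 49.1 CPM (log2 fold change 2.11, SE 0.25, edgeR adjusted p = 1.19e-04). Of 50 lysosomal genes, 8 (16%) were called higher and 2 (4%) lower (median 0.11), with 5 higher without control sample 2. Lgmn, the protease legumain, was higher (1.19, edgeR adjusted p = 0.00266), as was the proton pump subunit Atp6v0a1 (1.59, edgeR adjusted p = 8.89e-04). Slc11a1, a metal transporter of phagosomes also known as Nramp1, fell from 577, 589, 616 and 602 CPM to 309, 302, 424 and 392.2 CPM (log2 fold change -0.74, SE 0.15, edgeR adjusted p = 0.00541). The abundant proteases Ctsb (0.06, edgeR adjusted p = 0.846) and Ctsd (1.15, edgeR adjusted p = 0.0861) were not called.

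Antioxidant genes of the NRF2 program and metal transporters included 9 higher (25.7%) and 2 lower (5.71%) calls among 35 genes (median 0.23). Slc7a11, the cystine transporter, was at 14.1, 14.7, 15.6 and 27.8 CPM in controls and 42.9, 69.4, 98.4 and 106 CPM at 14 d. It rose by 2.13 on the log2 scale (SE 0.32, edgeR adjusted p = 6.54e-04). Slc39a14, which imports zinc and iron, was at 4.85, 8.07, 9.13 and 6.14 CPM and 28.9, 30.5, 44.6 and 46.5 CPM. It rose by 2.42 on the log2 scale (SE 0.30, edgeR adjusted p = 1.53e-04). All 14 d samples were above all controls for both genes. Gclm, which controls glutathione synthesis (2.46, edgeR adjusted p = 0.00148), Srxn1, which repairs peroxiredoxins (2.27, edgeR adjusted p = 0.00179), and Hmox1, which breaks down haem (0.89, edgeR adjusted p = 0.00186), were higher, whereas the ferritin chains Fth1 (0.74, edgeR adjusted p = 0.103) and Ftl1 (0.49, edgeR adjusted p = 0.0688) were not called.

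Arg2, a mitochondrial arginase, was at 4.06, 4.84, 2.98 and 4.39 CPM in controls, 12.5, 7.59, 16.9 and 12.8 CPM at 3 d and 34.1, 31.6, 33.4 and 24.8 CPM at 14 d. It rose by 2.93 on the log2 scale (SE 0.25, edgeR adjusted p = 1.16e-05). It was 1 of 3 higher (11.1%) and 2 lower (7.41%) calls among 27 genes of arginine, amine and eicosanoid metabolism (median 0.26). The lipoxygenases of the list moved apart. Alox5, which starts leukotriene synthesis, fell from 41.4, 40.2, 72.0 and 33.2 CPM to 12.99, 12.4, 14.7 and 13.8 CPM (log2 fold change -1.79, SE 0.30, edgeR adjusted p = 0.00149), and Alox15, which makes precursors of resolvins, rose from 0.249, 0.215, 0.482 and 0.570 CPM to 7.14, 4.68, 5.16 and 9.59 CPM (log2 fold change 4.10, SE 0.60, edgeR adjusted p = 5.70e-04). Higher calls numbered 6 without 14 d sample 1, and lower calls 1 without control sample 1 or 2 or 14 d sample 1, 2 or 3.

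Genes of glycolysis and the hypoxia response moved in both directions. Of 35 genes, 6 (17.1%) were called higher and 6 (17.1%) lower (median -0.03, range -1.58 to 1.18). Ldha, lactate dehydrogenase A, rose from 759, 957, 883 and 729 CPM to 1308, 1476, 1529 and 1158 CPM (log2 fold change 0.72, SE 0.14, edgeR adjusted p = 0.00355), the cytokine Mif (1.18, edgeR adjusted p = 0.00509) and the glucose transporter Slc2a1 (0.80, edgeR adjusted p = 0.0058) were higher, and Slc16a3, a lactate transporter, fell from 194, 224, 239.8 and 202 CPM to 105, 98.7, 113 and 104 CPM (log2 fold change -1.04, SE 0.13, edgeR adjusted p = 1.66e-04). Higher calls numbered 3 without 14 d sample 3, and lower calls 2 or 3 without control sample 1 or 3 or any single 14 d sample. Among 72 nuclear genes of oxidative phosphorylation, 4 (5.56%) were called higher and 0 lower, although 67 had a log2 fold change above 0 (median 0.27, range -0.26 to 0.71). Atp5g3, a subunit of ATP synthase, was at 269.5, 283, 328 and 309 CPM and 418, 511, 499.6 and 398 CPM (log2 fold change 0.62, SE 0.13, edgeR adjusted p = 0.00879), a call lost without control sample 1 or 14 d sample 2 or 3 (edgeR adjusted p 0.0314 to 0.0413, log2 fold change 0.56 to 0.58) because the fold change was then under 1.5. Higher calls in that list numbered 0 without control sample 1 or 14 d sample 2 or 3, 1 without control sample 2, 2 without control sample 4 and 7 without control sample 3. Of 74 cytosolic ribosomal protein genes, 2 (2.703%) were called higher and 0 lower (median 0.26), including Rps26, from 209, 247, 261 and 228 CPM to 397, 447, 384 and 284 CPM (log2 fold change 0.68, SE 0.16, edgeR adjusted p = 0.0173), which was lost without control sample 1 or 14 d sample 2 (edgeR adjusted p 0.0563 to 0.0566, log2 fold change 0.60 to 0.63). The higher calls in that list numbered 0 without control sample 1 or 14 d sample 2, 1 without control sample 2 or 14 d sample 1 or 3 and 4 without 14 d sample 4.

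Transcription factors of monocytes and macrophages had 3 higher (6.52%) and 10 lower (21.7%) calls among 46 genes (median -0.27). Tfec, of the family that controls lysosomal genes, was at 5.47, 11.8, 10.9 and 8.34 CPM in controls, 22.2, 11.9, 44.3 and 37.97 CPM at 3 d and 44.6, 46.0, 53.5 and 43.5 CPM at 14 d (log2 fold change 2.36, SE 0.35, edgeR adjusted p = 5.90e-04), and its relative Mitf was higher (1.40, edgeR adjusted p = 0.00423). Ets1 (-3.02, edgeR adjusted p = 0.00135), which lymphocytes also express, Hes1 (-2.40, edgeR adjusted p = 0.00169), a target of Notch, and Spic (-1.72, edgeR adjusted p = 0.0058), a factor of red pulp macrophages, were lower. Spi1, which encodes PU.1, was at 292 to 916 CPM in controls and 386 to 710.0 CPM at 14 d and was not called (-0.13, edgeR adjusted p = 0.879). Higher calls numbered 5 without control sample 4.

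Of 43 migration, adhesion and cytoskeletal genes, 3 (6.98%) were called higher and 7 (16.3%) lower (median -0.19, with 4 lower without 14 d sample 2). The laminin receptor chain Itga6 rose from 1.74, 1.34, 3.66 and 2.97 CPM to 9.92, 17.2, 21.2 and 14.4 CPM (log2 fold change 2.68, SE 0.33, edgeR adjusted p = 1.48e-04) and the intermediate filament Vim was higher (0.70, edgeR adjusted p = 0.00486), whereas Itga4, which binds VCAM-1, was lower (-1.35, edgeR adjusted p = 7.42e-04). Actb, beta-actin, was among the least changed genes of high level, with Rps14, Fau and Ube2d3. It was at 25162 ± 2363 CPM in controls and 25120.2 ± 1252 CPM at 14 d (SD, n = 4 each; log2 fold change -0.002, SE 0.10, edgeR adjusted p = 0.992). Of 37 cell cycle genes, 1 (2.703%) was called higher and 4 (10.8%) lower (median -0.13). Kif23, a kinesin of cytokinesis, fell from 16.9, 13.2, 10.7 and 15.2 CPM to 3.62, 4.88, 4.52 and 6.97 CPM (log2 fold change -1.48, SE 0.25, edgeR adjusted p = 0.00161), while Mki67 was not called (0.03, edgeR adjusted p = 0.969). Tubb5, a beta-tubulin, was the gene called higher, from 54.7, 51.3, 94.6 and 66.7 CPM to 114, 138, 132 and 97.4 CPM (log2 fold change 0.85, SE 0.22, edgeR adjusted p = 0.0256), a call lost without control sample 1 or 2 or 14 d sample 2 or 3 (edgeR adjusted p 0.0653 to 0.0815, log2 fold change 0.74 to 0.78). Lower calls numbered 2 without control sample 2 or 14 d sample 2 or 3. Of 30 genes of the unfolded protein and integrated stress response, 1 (3.33%) was called higher and 7 (23.3%) lower (median -0.01), among them Ppp1r15a, which lifts the block of translation in stress, at 281, 370.4, 186 and 251 CPM in controls and 76.9, 94.9, 99.2 and 125 CPM at 14 d (log2 fold change -1.46, SE 0.21, edgeR adjusted p = 4.64e-04). Lower calls numbered 3 or 4 without control sample 2 or 3 or any single 14 d sample, and higher calls 2 without control sample 2.

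Some lower genes lay near each other in the genome. The runs named here were picked after their values were seen. A run is a chain of at least 4 genes called in the same direction with no more than 200 kb between neighbours, and genes not called may lie between them. There were 38 such runs among the 879 lower genes, holding 194 genes, and 3 among the 462 higher genes, holding 12. The number expected by chance was not computed. In some runs most genes were not called, as in 10 called of 24 on chromosome 17 (chr17:33905135-34254414) and 5 of 17 on chromosome 11 (chr11:120610087-121229322). On chromosome 1 (GRCm38, chr1:173350879-174031810) all 10 of the 10 genes described there, Aim2 and 9 members of the Ifi200 family of nuclear DNA sensors, were called lower, with a median log2 fold change of -1.47. On chromosome 19 (chr19:34550694-34650009) 5 of 5 genes of the Ifit family were lower (median -3.30), and on chromosome 6 (chr6:48647234-48770851) 8 of 8 Gimap genes, GTPases of lymphocyte survival, were lower (median -3.35). Members of these families are similar in sequence and may share reads. Of the higher runs, 1 was on chromosome 8 (chr8:12757014-13056676) and held the coagulation factor genes F7 and F10 with Mcf2l and Atp11a (4 of 4 genes, median 1.61). The call for F7 was lost without control sample 2 or 4 or 14 d sample 2, 3 or 4 (edgeR adjusted p 0.0599 to 0.0967, log2 fold change 2.26 to 2.59).

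The 14 d change in monocytes was set beside that in SigF+CD11b- alveolar macrophages of the same series (4 control and 3 14 d samples), in which 4462 of 8868 of these genes (50.3%) were called. The interaction, the monocyte change minus the macrophage change, was tested in a fit over all 22 samples, and 4974 of 8893 genes (55.9%) were called, 4374 (49.2%) with the higher log2 fold change in monocytes and 600 (6.75%) with the lower. This count rested on the scaling between cell types. With library size scaling 2608 genes were called, 1246 with the higher log2 fold change in monocytes and 1362 with the lower, and the median difference over all genes fell from 0.79 to 0.11. The 14 d macrophage libraries held 4610720 to 6838893 counts and the control libraries 14437070 to 17074863. Xist and the Y genes differed between the control and 14 d macrophages as they did in monocytes.

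Among the genes with the largest changes in monocytes, some moved in the same direction in macrophages and others did not. Ccl24 rose by 6.63 on the log2 scale in monocytes and by 8.01 in macrophages (interaction -1.09, edgeR adjusted p = 0.752), and Slc36a2 by 6.68 and 5.89 (interaction 1.10, edgeR adjusted p = 0.414). Cxcl3 rose by 5.91 in monocytes and changed by -1.01 in macrophages, where it was at 7.86 ± 5.50 CPM in controls (SD, n = 4) and 3.81 ± 1.85 CPM at 14 d (SD, n = 3). The interaction was 7.26 (edgeR adjusted p = 1.14e-06) and 6.63 with library size scaling. Inhba rose by 5.55 in monocytes, against 0.46 in macrophages (interaction 5.41, edgeR adjusted p = 2.38e-04), and Flrt3 by 5.69 against 1.96 (interaction 4.06, edgeR adjusted p = 0.00156). Fabp1 changed by -7.68 in monocytes and by -4.04 in macrophages (interaction -3.26, edgeR adjusted p = 0.14), from 134 ± 28.3 CPM in control macrophages (SD, n = 4) to 8.06 ± 3.34 CPM (SD, n = 3).

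**Figure D5:**
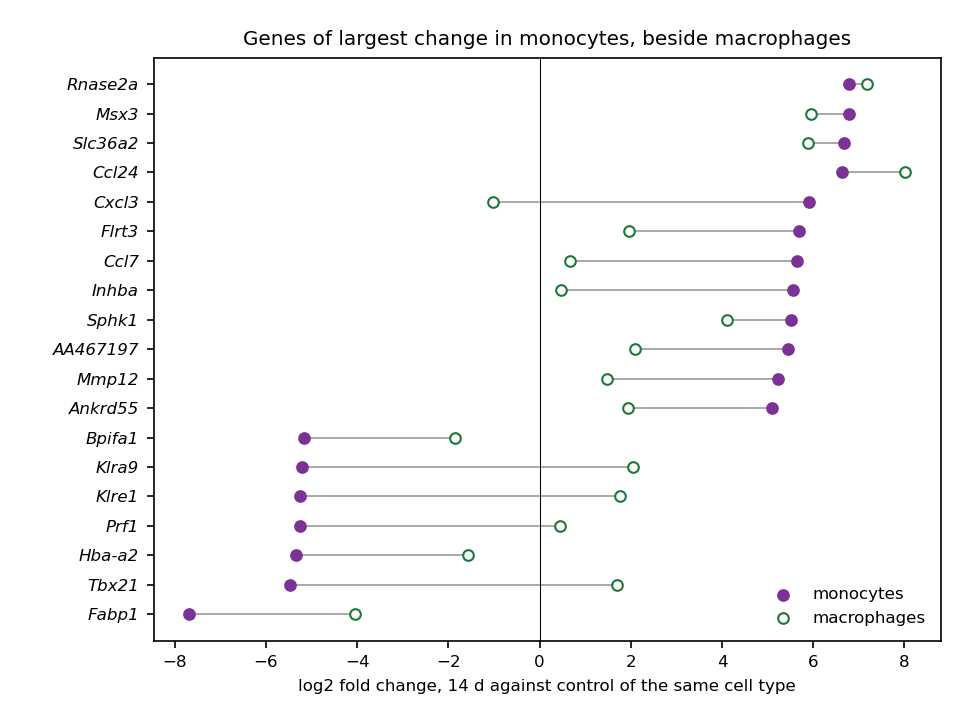
Log2 fold change at 14 d against control of the 19 genes of largest change in monocytes that were also tested in macrophages, with filled points for monocytes and open points for macrophages. Ccl24, Slc36a2, Msx3 and Rnase2a rose in both cell types, while Cxcl3 was at 5.91 in monocytes and -1.01 in macrophages.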

How the data were processed

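RNA was made into oligo(dT)-selected libraries from sorted lung monocytes (12 samples) and alveolar macrophages (10 samples). Raw counts per gene were deposited by the authors, who aligned reads to mouse genome build GRCm38 with STAR and counted them with featureCounts 1.6.3 per the submitters' processing notes, where STAR 2.7.2c and 2.7.3a are both listed. Genes were matched to GENCODE M21 by identifier (99.7%). The counts were fitted with edgeR 4.0.16 in R 4.3.3 (filterByExpr, TMM scaling, robust quasi-likelihood test) over the 12 monocyte samples, with 14 d minus control as the contrast, and Benjamini-Hochberg adjustment ran over all 22353 genes tested. A second fit over 22 samples of both cell types tested the interaction. CPM used TMM-scaled library sizes. SEs are of the log2 fold change. Libraries of 15451460 to 28789639 counts set the precision, and low genes vary most.

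Genes with values in the text were, per direction, the 12 with the largest change among called genes without overlap between groups, the 12 with the smallest p, up to 4 per list with the smallest p and the 2 of highest level, and the 5 least changed genes above 500 CPM. Other members of a list were named with it. The members and lists were chosen with earlier results of these data known, so counts over a list describe it and are not a test of it. Marker sums are given as ranges. Results of a few genes are not reported here. Alternatives were other scalings, DESeq2 1.42.0, other filters and call rules, a block for the replicate number and leaving out samples. The deposited tables hold no other measurement, and 0 columns of values were left unmapped. Scripts were tested on simulated data.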

Additional observations from a re-analysis of the deposited data

Results flagged for a closer look

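Of 160 groups of 4 samples (80 genes in controls and at 14 d), 7 held a sample far from the other samples of its group, and chance alone gives about 1 in 20. In controls these were Slc7a11 in sample 4 (27.8 CPM), Pf4 in sample 3 (9.93 CPM), Phf11b in sample 3 (172 CPM) and Ifi27l2a in sample 2 (2080.7 CPM). At 14 d they were H2-T24 in sample 4 (30.1 CPM), Fdps in sample 1 (34.6 CPM) and Ifi27l2a in sample 3 (284 CPM). In none of these genes did the sample reach the range of the other group.

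Of the 24 genes with the largest changes in monocytes, 10 were tested in both cell types and changed differently in monocytes and macrophages by the interaction test (edgeR adjusted p under 0.05). The difference of the log2 fold changes, monocytes minus macrophages, was 7.26 for Cxcl3, 5.41 for Inhba, 5.30 for Ccl7, 4.06 for Flrt3, 4.05 for Mmp12 and 3.50 for Ankrd55. It was -6.94 for Klra9, -6.80 for Tbx21, -6.65 for Klre1 and -5.35 for Prf1, which are genes of NK cells. These genes had few counts in macrophages, summed over the control and over the 14 d libraries. The sums were 11 and 18 for Klra9, 34 and 38 for Tbx21, 21 and 25 for Klre1 and 61 and 30 for Prf1. The macrophage side of these differences therefore rests on few reads. With library size scaling the difference for Mmp12 was 3.36 (edgeR adjusted p = 0.0979), and the other 9 remained under 0.05.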

How the results depend on the processing

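Of 335 called genes that are in a list or were taken by the rule for genes with values, 226 were called under every alternative except glmTreat, 109 lost the call under at least 1, and 0 changed sign. The 1341 calls became 611 (209 higher, 402 lower) when glmTreat tested against a fold of 1.5. Leaving out a single sample gave 828 to 1368 calls, 263 to 490 of them higher and 565 to 911 lower, with fewer samples in the fit. Higher calls numbered 797 with control samples 3 and 4 both left out, an alternative chosen after seeing the data, and the cause was not tested. In that fit the calls for Tbx21, Ccl24, Cd86, Clec4n, Cd63, AA467197, Ccl5 and Mmp12 were also lost (edgeR adjusted p 0.0596 to 0.142), and higher calls numbered 1 among pattern recognition genes, 5 among classical monocyte genes, 6 among transcription factors, 5 in arginine, amine and eicosanoid metabolism and 4 in the cell cycle. With only control and 14 d samples fitted, higher calls numbered 8 among Fc, complement and phagocytic receptors and 5 among immediate early genes. Of the fewer genes with a mean CPM of 20 or more, 290 were called higher. Between monocytes and macrophages, 4974 calls became 2608 with library size and 2575 with upper quartile scaling, and 3894 to 5225 without a single sample. That count depends on the scaling.

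Control and 14 d samples share replicate numbers, and same-numbered pairs correlated at 0.0892 to 0.521. Control samples 1, 3 and 4 correlated best with the 14 d sample of the same number, and control sample 2 with 14 d sample 1. The numbers were not taken as a pairing in the main fit. With a replicate block 1356 genes were called (498 higher, 858 lower), and 4277 in the comparison with macrophages.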

Other observations

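Interferon-stimulated response elements were also present in lower genes that neither interferon list holds. A set of 778 of the 879 lower genes left out more genes than those lists hold. In it 48 of 616 promoters (7.79%) had the element, against 3.11% of promoters of genes not called. The median log2 fold change of the type I interferon list was -0.52 at 3 d and -1.56 at 14 d, and that of the macrophage maturation and tissue-remodelling list was -0.55 at 3 d and 1.15 at 14 d. Both times were set against the same 4 control samples, and 40119 to 41134 genes were detected per 3 d library against 24829 to 32492 per 14 d library. Medians at 3 d were below 0 for every list described here, from -1.78 for patrolling monocyte genes to -0.19 for nuclear genes of oxidative phosphorylation. A 3 d median below 0 is therefore not particular to these lists. TMM factors were 1.20 to 1.24 at 3 d, 0.84 to 0.92 in controls and 0.88 to 0.99 at 14 d.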
